A study of Mus musculus with 8 samples.

Results

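The respiratory chain of the inner mitochondrial membrane was followed through its nuclear-encoded genes in the brain and neural tube of E11.5 mouse embryos, with and without the RNA-binding proteins Lin28a and Lin28b. Genes were taken by symbol from the table of total RNA counts: the Nduf genes of complex I (families a, b, c, s and v), Sdha to Sdhd of complex II, the Uqcr genes of complex III, the lettered Cox4 to Cox8 genes of complex IV and the Atp5 genes of complex V. A gene was kept when its counts summed to at least 20 over the 4 total RNA libraries. Of 24420 rows in the table, 82 matched and 76 were kept, namely 36 genes of complex I, 4 of complex II, 8 of complex III, 12 of complex IV and 16 of complex V. All 76 were tested in total RNA, and 39 of them were also listed in the table of polysomal RNA counts. By its title, the study asks how Lin28 promotes protein synthesis in neural progenitors and the growing brain.

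There were 4 groups with 2 libraries each: total RNA from double knockout embryos (dKO; Lin28a-/-;b-/-), total RNA from wildtype embryos (WT), polysomal RNA from dKO embryos and polysomal RNA from WT embryos. Polysomal RNA is the RNA that travels with several ribosomes at once. Whether the 2 replicates of a group are different embryos is not stated in the labels, and the p-values thus reflect the spread of these libraries alone, part of which can be technical. In a bulk sample, fewer cells of a type and less RNA per cell cannot be told apart.

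Complexes I to IV pass electrons from NADH and succinate to oxygen, complexes I, III and IV pump protons as they do so, and complex V, the ATP synthase, uses the proton gradient to make ATP. Complex I takes electrons from NADH, complex II is the succinate dehydrogenase that also works in the citric acid cycle, complex III passes electrons from ubiquinol to cytochrome c, and complex IV reduces oxygen. Each holds a catalytic core and, apart from complex II, many small accessory subunits, and all but complex II also contain subunits made inside the mitochondrion. Lin28 proteins block the maturation of let-7 microRNAs and bind many messenger RNAs, and in other mouse tissues Lin28a has been tied to the translation of messenger RNAs for mitochondrial enzymes.

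The let-7 microRNAs are shown first because Lin28 holds them back and because their shared seed was searched for in every gene. Capitals mark the seed, bases 2 to 8, in the mature RefSeq sequences (GRCm38.p6).
mmu-let-7a-5p: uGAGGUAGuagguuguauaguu
mmu-let-7d-5p: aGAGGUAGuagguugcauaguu
mmu-let-7g-5p: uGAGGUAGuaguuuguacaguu
The match to this seed, CTACCTC, occurred in the annotated 3′ untranslated region of 1 of the 76 respiratory chain genes (1.32%), against 9.66% of 13586 tested genes with such a region. The single match was in Cox7b, a small membrane subunit of complex IV on chromosome X, at base 372 of its 627-base 3′ untranslated region, and capitals mark it here.
Cox7b: ttactgccctCTACCTCgtggttatat
The median 3′ untranslated region was 182 bases in the respiratory chain genes, against 1093.5 bases in all tested genes. A match describes these letters only.

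Levels are given as CPM, each count scaled to its library's TMM-adjusted size, and a call means an adjusted p under 0.05 (Benjamini-Hochberg over all tested genes) in edgeR's quasi-likelihood F test. The knocked-out genes themselves were lower in both dKO libraries of each fraction than in either WT library. Lin28a had 6.55 and 7.73 CPM in dKO total RNA, against 73.3 and 72.2 CPM in WT total RNA. Lin28b had 48.0 and 55.1 CPM in dKO total RNA, against 128 and 123 CPM in WT total RNA. In polysomal RNA, Lin28a had 15.6 and 14.8 CPM in dKO, against 103 and 92.8 CPM in WT. Polysomal Lin28b had 41.5 and 30.5 CPM in dKO, against 153 and 142 CPM in WT. Reads over an undeleted stretch of a knocked-out gene would still be counted, and where the alleles are deleted is not given in the sources used here.

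Total RNA columns held between 15060560 and 15768767 counts. Polysomal columns summed to 3740980 and 5164982 counts in dKO and to 14874143 and 15414712 counts in WT, which are sums over the listed genes and not depths. Progenitor and neuron markers were plentiful, with summed levels of 3815 to 3849 CPM and 4487 to 4488 CPM in dKO total RNA, against 4211 to 4243 CPM and 4685 to 4700 CPM in WT total RNA. Both lists went both ways. Of 10 progenitor genes 1 was higher and 4 lower, and of 10 neuron genes 2 were higher and 4 lower. Of all tested genes, 14.7% were higher and 16.0% lower. Of 9 tested red blood cell genes, 8 were lower in dKO total RNA. The list summed to 2697 to 2701 CPM in dKO, against 4417 to 4483 CPM in WT, with Hba-a1 and Hba-a2 at 0 in all 4 libraries. How reads with several matches were counted is not given, so a 0 there is not read as absence. Mesenchyme markers summed to 248 to 253 CPM in dKO, against 298 to 313 CPM in WT, and muscle and heart markers to at most 2.99 CPM in any library.

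In total RNA, the respiratory chain did not move as a block. Among the lower genes in dKO embryos were Ndufv1 and Ndufs1 of complex I, Uqcrc1 of complex III, Sdha of complex II and the alpha and beta subunits of the ATP synthase, by 1.27-fold to 1.65-fold. Among the higher genes were Cox7a2l, Cox7a2 and Cox8a of complex IV, by 1.24-fold to 1.34-fold. In all, 8 of 76 genes (10.5%) were higher, 16 (21.1%) were lower and 52 were not called, where 14.7% of all 14594 tested genes were higher and 16.0% were lower. The median log2 fold change was −0.03 over the 76 genes and 0.00 over all tested genes, so neither share was far from the background. Without dKO replicate 2, 9 genes were lower, and without dKO replicate 1 or WT replicate 1, 5 were higher. Among the calls lost when 1 of the 4 libraries was left out were those of Atp5e, Atp5g3, Atp5h, Ndufa13, Ndufb5, Ndufb9, Sdhb, Uqcrc2, Uqcrfs1 and Uqcrq. The libraries of dKO and WT did not overlap in 45 of the 76 genes, including genes not called such as Cox7b. A lack of overlap alone thus says little, and its share over all tested genes was not counted.

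**Figure D1:**
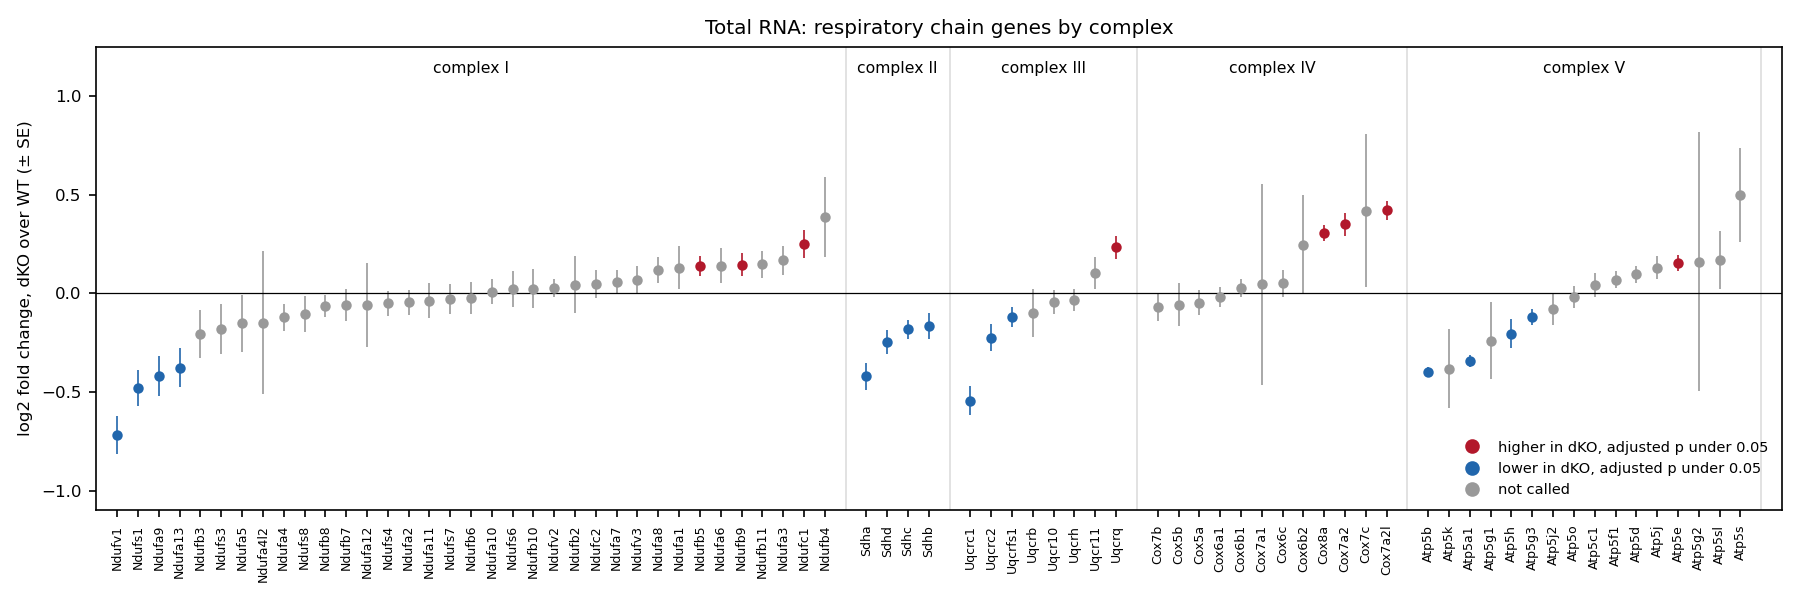
Log2 fold change of 75 of the 76 genes in total RNA (dKO over WT), grouped by complex and ordered by value, with bars of ± 1 standard error. Blue points passed the threshold as lower in dKO (15 genes), red points as higher in dKO (8 genes), and grey points did not pass. All 4 complex II genes lie below 0, and no complex IV gene is blue.

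Complex I had 3 higher and 5 lower genes among 36. Its 7 core subunits, which carry the flavin and the iron-sulfur clusters, included 3 lower genes and none higher (edgeR; also 0 at an unadjusted p under 0.05 and 0 with DESeq2). Ndufv1, the flavin-binding subunit that accepts electrons from NADH (ENSMUSG00000037916.14, chr19:4007384-4012806, GRCm38, minus strand), had 30.4 and 32.2 CPM in dKO, against 49.8 and 53.3 CPM in WT. Both dKO libraries were below both WT libraries, and the log2 fold change was −0.72 ± 0.10 (SE; adjusted p = 6.5e-12, n = 2 each). Ndufs1, the largest core subunit and an iron-sulfur protein (chr1:63143596-63176833), had 41.2 and 38.3 CPM in dKO, against 50.7 and 60.2 CPM in WT (log2 fold change −0.48 ± 0.09, adjusted p = 1.97e-06). Its groups did not overlap either. The 4 core genes that were not called had log2 fold changes between −0.18 and 0.03.

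The 29 remaining complex I genes, which surround the core, had 3 higher and 2 lower members. Ndufa9, at the joint between the matrix arm and the membrane arm, had 33.1 and 32.9 CPM in dKO, against 44.3 and 44.1 CPM in WT (log2 fold change −0.42 ± 0.10, adjusted p = 2.31e-04). Ndufa13, also known as GRIM-19, had 37.4 and 30.7 CPM in dKO, against 46.9 and 41.4 CPM in WT (−0.38 ± 0.10, adjusted p = 0.00106). Both dKO libraries lay below both WT libraries for the 2 genes, and 28.5% of the 50-base windows of Ndufa13 also occur in other genes, so its counts are less certain. Ndufc1, a short membrane subunit, had 83.1 and 85.0 CPM in dKO, against 72.0 and 69.5 CPM in WT (0.25 ± 0.07, adjusted p = 0.00245). Ndufb9 and Ndufb5, both of the membrane arm, were higher by 0.15 ± 0.06 (adjusted p = 0.0396) and 0.14 ± 0.05 (adjusted p = 0.023) on the log2 scale. Ndufab1, the acyl carrier protein of complex I, falls outside the symbol patterns and had 7.32 and 7.09 CPM in dKO, against 8.15 and 7.68 CPM in WT (−0.14 ± 0.21, adjusted p = 0.693).

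All 4 genes of complex II were lower in dKO total RNA, and their summed level was 427 and 433 CPM in dKO, against 505 and 506 CPM in WT. Sdha, the flavoprotein that oxidises succinate (ENSMUSG00000021577.14, chr13:74322254-74350280, minus strand), had 61.8 and 71.1 CPM in dKO, against 86.2 and 91.7 CPM in WT. Its groups were well apart (log2 fold change −0.42 ± 0.07, adjusted p = 4.39e-08). The membrane anchors Sdhd and Sdhc were lower by smaller steps. Sdhd had 104 and 105 CPM in dKO, against 122 and 126 CPM in WT (−0.25 ± 0.06, adjusted p = 2.57e-04). Sdhc had 172 and 176 CPM in dKO, against 195 and 200 CPM in WT (−0.18 ± 0.05, adjusted p = 6.61e-04). Sdhb, the iron-sulfur subunit, had 89.9 and 80.8 CPM in dKO, against 102 and 89.3 CPM in WT (−0.16 ± 0.07, adjusted p = 0.0447). The Sdhb groups overlapped, and its call was lost with DESeq2, no filter or the GC offset, and without WT replicate 1 or dKO replicate 2, which left 3 of 4 lower.

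In complex III, 1 of 8 genes was higher and 3 were lower. Uqcrc1, a core protein that faces the matrix (ENSMUSG00000025651.14, chr9:108936633-108949623, plus strand), had 57.5 and 60.4 CPM in dKO, against 81.2 and 90.7 CPM in WT (log2 fold change −0.54 ± 0.07, adjusted p = 2.78e-12). The second core protein, Uqcrc2, had 83.0 and 77.2 CPM in dKO, against 92.9 and 94.4 CPM in WT (−0.22 ± 0.07, adjusted p = 0.00445). Uqcrfs1, the Rieske iron-sulfur protein, had 165 and 167 CPM in dKO, against 184 and 177 CPM in WT (−0.12 ± 0.05, adjusted p = 0.0446). All 3 were lower in both dKO libraries than in either WT library, with Uqcrc1 furthest apart. Uqcrq, a short subunit that contacts cytochrome b, was the higher gene, with 128 and 126 CPM in dKO, against 104 and 113 CPM in WT (0.23 ± 0.06, adjusted p = 4.41e-04). The other short subunits, Uqcrb, Uqcr10, Uqcrh and Uqcr11, were not called, with log2 fold changes between −0.10 and 0.10. Cyc1, cytochrome c1, is outside the symbol patterns and was lower, with 93.7 and 87.4 CPM in dKO, against 106 and 110 CPM in WT (−0.26 ± 0.06, adjusted p = 4.04e-04).

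Complex IV had 3 higher genes and no lower gene among 12 (edgeR; also 0 at an unadjusted p under 0.05 and 0 with DESeq2), and its summed level was 1283 and 1243 CPM in dKO, against 1161 and 1109 CPM in WT. Its catalytic subunits are made inside the mitochondrion and had no row, so every gene here is an accessory subunit. Cox7a2l, which helps to join complexes III and IV into supercomplexes (ENSMUSG00000024248.14, chr17:83501918-83517330, minus strand), had 199 and 196 CPM in dKO, against 148 and 147 CPM in WT (log2 fold change 0.42 ± 0.05, adjusted p = 2.11e-16). Its close relative Cox7a2, the isoform found in most tissues (chr9:79755361-79759878), had 138 and 126 CPM in dKO, against 102 and 104 CPM in WT (0.35 ± 0.06, adjusted p = 3.71e-08). Cox8a, a short membrane subunit (chr19:7215153-7217616), had 283 and 256 CPM in dKO, against 227 and 210 CPM in WT (0.31 ± 0.04, adjusted p = 7.51e-12). For each of the 3, both dKO libraries were above both WT libraries.

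The muscle isoform Cox7a1 was near its floor, with 34 and 13 counts in dKO and 30 and 15 counts in WT. Cox6b2, best known from testis, had 115 and 73 counts in dKO and 78 and 78 counts in WT, far below Cox6b1 with 3110 and 3152 counts in dKO and 3152 and 2912 counts in WT. The tissue-restricted isoforms were thus a small share of the reads of their pairs. Cox7c, a general subunit, had at most 48 counts and shares 53.0% of its windows with other genes (0.42 ± 0.39, adjusted p = 0.45). The other genes not called lay between −0.07 and 0.25 on the log2 scale. Cox4i1, outside the symbol patterns, was higher, with 340 and 333 CPM in dKO, against 298 and 298 CPM in WT (0.18 ± 0.04, adjusted p = 1.98e-05). Cox4i2, the lung and hypoxia isoform, had 8 and 8 counts in dKO and 7 and 5 counts in WT and was not tested. Ndufa4, counted with complex I by its symbol but since placed in complex IV, had 83.9 and 82.0 CPM in dKO, against 95.4 and 85.2 CPM in WT (−0.12 ± 0.07, adjusted p = 0.166).

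Complex V had 1 higher and 4 lower genes among 16, and summed to 2700 and 2737 CPM in dKO, against 3081 and 2973 CPM in WT. Atp5b, the catalytic beta subunit (ENSMUSG00000025393.12, chr10:128083273-128090391, plus strand), was the most counted of all 76 genes, with 659 and 706 CPM in dKO, against 922 and 876 CPM in WT (log2 fold change −0.40 ± 0.02, adjusted p = 7.09e-55). Its partner in the catalytic ring, the alpha subunit Atp5a1, had 468 and 467 CPM in dKO, against 597 and 588 CPM in WT (−0.34 ± 0.03, adjusted p = 2.29e-28). The WT libraries were the higher ones in both cases with no overlap. Atp5h, of the stalk that holds the ring still, was lower by −0.21 ± 0.07 (adjusted p = 0.0204) and shares 47.9% of its windows with other genes. Atp5g3, which encodes the proton-carrying c subunit, had 266 and 261 CPM in dKO, against 291 and 282 CPM in WT (−0.12 ± 0.04, adjusted p = 0.0112). Atp5e, the short epsilon subunit of the rotor (chr2:174461072-174464105), had 300 and 289 CPM in dKO, against 276 and 253 CPM in WT (0.15 ± 0.04, adjusted p = 6.09e-04).

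The other rotor subunits Atp5c1 and Atp5d were not called, at 0.04 ± 0.06 and 0.10 ± 0.04 on the log2 scale. Of the other c subunit genes, Atp5g1 had 133 and 130 counts in dKO and 139 and 167 counts in WT. Atp5g2 had 10 and 17 counts in dKO and 22 and 2 counts in WT, and 87.4% of its windows occur in other genes, whose effect on its count was not tested. Atp5s and Atp5sl carry ATP synthase symbols but are not among its usual subunits, and neither was called.

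**Figure D2:**
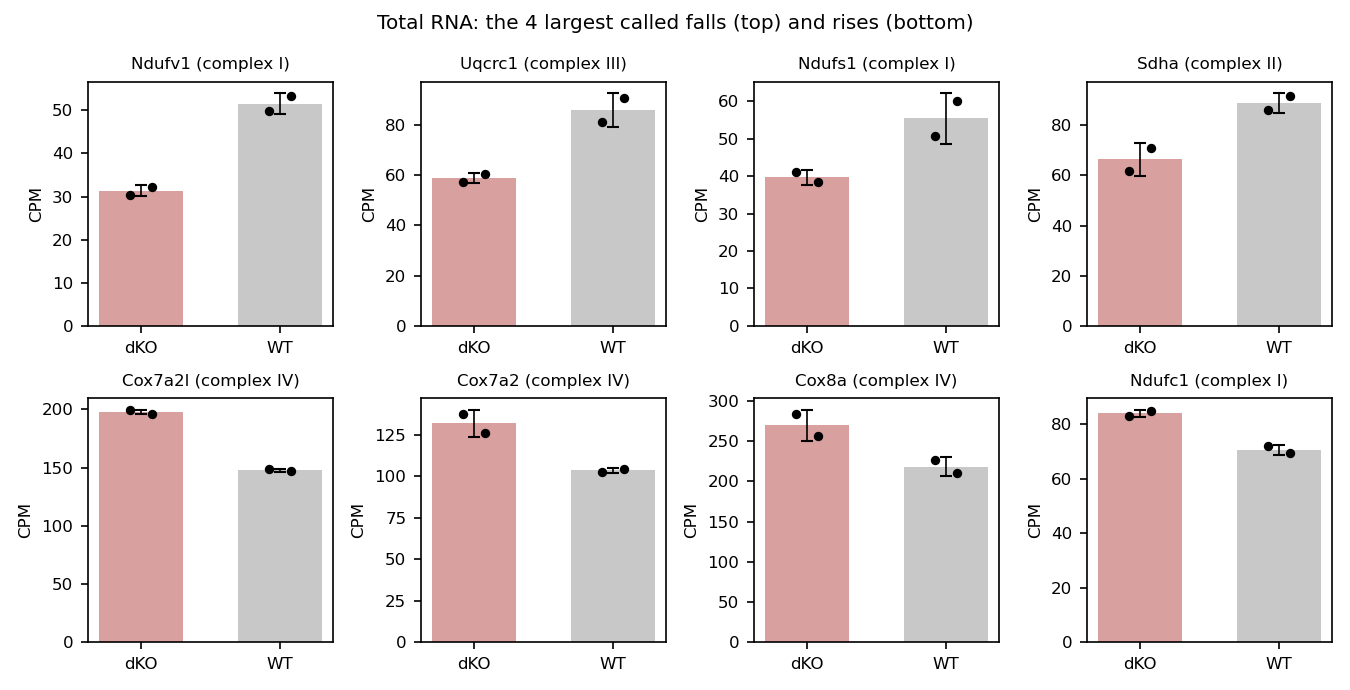
Levels in total RNA (CPM, vertical axes from 0) of the 4 genes with the largest called falls (top) and rises (bottom), dKO left and WT right. Bars are means, error bars ± 1 SD and points the 2 libraries of a group. In each panel the 2 groups do not overlap.

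Gene symbols sit close to the threshold of 20 counts in few cases. Just outside were Atp5l with 13 counts in all (3 and 8 in dKO, 1 and 1 in WT), Cox8b with 5 and Cox7b2 with 1, while Cox6a2, Cox8c and Ndufs5 were at 0. Just inside were Atp5g2 with 51, Cox7a1 with 92 and Cox7c with 158. Atp5l and Ndufs5 encode subunits used in all tissues, and 84.8% and 31.1% of their windows occur in other genes. Whether this lowered their counts was not tested, and a count near 0 there is not read as absence. Across the kept genes, 15 had at least 20% of their windows in common with other genes and 34 had none. Leaving those 15 out gave 7 higher and 13 lower genes of 61 in total RNA.

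Measured per kilobase of transcript, WT total RNA levels ran from a median of 69.4 CPM per kb in complex I through 73.0 in complex II, 97.0 in complex III and 122 in complex IV to 125 in complex V. The highest gene of each complex by this scale was a short subunit. Atp5e led with 699 ± 18.4 CPM per kb in dKO and 628 ± 37.9 CPM per kb in WT (SD, n = 2 each). Cox8a followed with 490 ± 35.0 CPM per kb in dKO and 397 ± 21.2 CPM per kb in WT. Uqcr10, Ndufa7 and Sdhd led complexes III, I and II with 260, 214 and 101 CPM per kb in WT.

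Lower and higher genes differed in coding length, a split chosen after the values were seen. Of the 11 genes with a coding length of at least 1000 bases, 9 were lower in dKO total RNA and none was higher (edgeR; also 0 at an unadjusted p under 0.05 and 0 with DESeq2). The 2 others were Ndufa10, at 0.01 ± 0.06, and Ndufv3, at 0.07 ± 0.07 on the log2 scale. Of the 65 shorter genes, 8 were higher and 7 were lower. The median log2 fold change was −0.40 for the long genes and 0.02 for the short ones. Over all tested genes, 13.1% of 9511 long genes were higher and 19.0% lower, and 18.8% of 4215 short genes were higher and 11.8% lower, with medians of −0.03 and 0.04. Across the 76 genes, Spearman's rho between log2 fold change and coding length was −0.42, against −0.10 over 13726 genes, with all genes measured in the same 4 libraries. Leaving out a library left 7 to 9 of the 11 long genes lower.

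**Figure D3:**
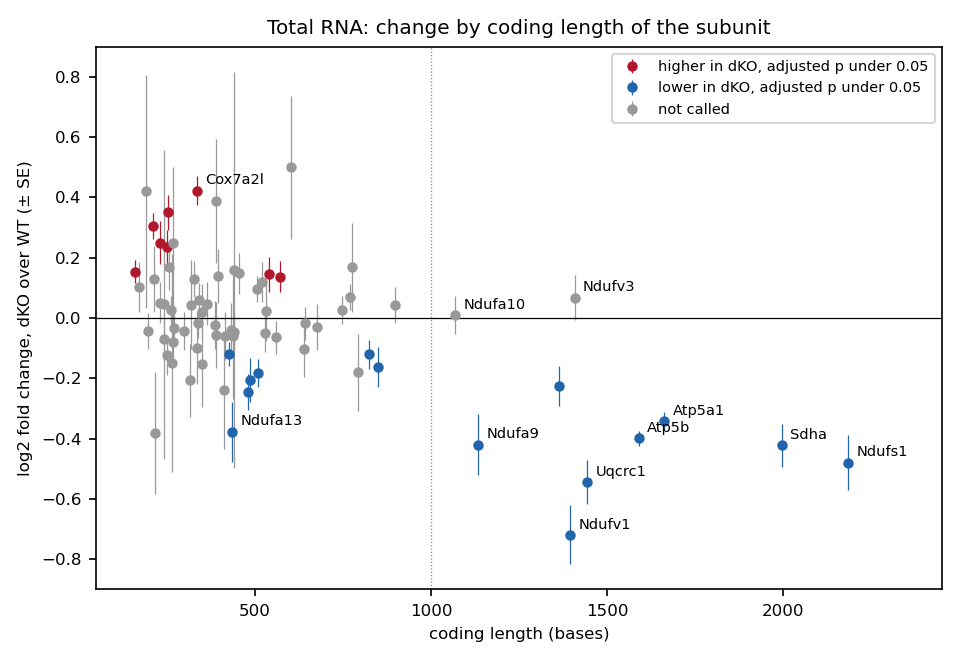
Log2 fold change in total RNA (dKO over WT, ± 1 standard error) of the same 75 genes against coding length in bases. Colours are as in the plot by complex, and the dotted line stands at 1000 bases. To its right 8 of 10 genes are blue and none is red.

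Promoters of 3 genes with large changes are shown for the NRF-1 motif, the site of a transcription factor of respiratory genes. The sequences are RefSeq promoters on GRCm38.p6, 250 bases before to 50 after the start, and capitals mark matches to GCGCANGCG on either strand, with overlapping matches run together. Uqcrc1 lies at chr9:108936398-108936697 (plus strand), Sdha at chr13:74350191-74350490 (minus strand) and Cox7a2l at chr17:83514284-83514583 (minus strand).
Uqcrc1: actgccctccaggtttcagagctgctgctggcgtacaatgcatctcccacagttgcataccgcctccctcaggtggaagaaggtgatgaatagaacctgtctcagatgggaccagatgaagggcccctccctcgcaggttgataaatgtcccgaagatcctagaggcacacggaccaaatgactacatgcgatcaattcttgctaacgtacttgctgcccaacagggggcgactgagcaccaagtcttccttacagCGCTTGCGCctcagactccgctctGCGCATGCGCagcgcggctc
Sdha: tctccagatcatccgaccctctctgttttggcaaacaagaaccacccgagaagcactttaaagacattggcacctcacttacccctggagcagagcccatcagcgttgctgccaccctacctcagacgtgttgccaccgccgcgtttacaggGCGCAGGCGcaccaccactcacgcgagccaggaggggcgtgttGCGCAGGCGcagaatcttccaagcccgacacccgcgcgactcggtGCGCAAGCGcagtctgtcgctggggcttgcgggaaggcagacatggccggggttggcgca
Cox7a2l: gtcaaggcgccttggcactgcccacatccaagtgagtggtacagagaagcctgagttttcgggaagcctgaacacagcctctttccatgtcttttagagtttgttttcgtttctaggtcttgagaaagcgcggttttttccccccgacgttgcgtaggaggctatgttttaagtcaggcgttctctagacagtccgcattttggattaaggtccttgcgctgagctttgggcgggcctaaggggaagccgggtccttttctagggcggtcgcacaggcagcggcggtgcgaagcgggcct
Uqcrc1 and Sdha, both lower in dKO, hold 3 matches each, some of them overlapping in Uqcrc1. Cox7a2l, the gene with the largest called rise, holds none. Ndufv1, the gene with the largest called fall, also holds none. The Cox7a2l promoter shown lies within the annotated gene (chr17:83501918-83517330) and not at its outer end, so it belongs to an inner start. A promoter was given for 65 of the 76 genes, of which 18 (27.7%) held the motif, against 14.2% of 11477 tested genes. The motif was present in 5 of 11 lower genes, 0 of 6 higher genes and 13 of 48 genes not called. The GABP motif CCGGAAG was in 23.1% of the respiratory chain promoters, against 18.5% of all, and the YY1 motif AAGATGG in 18.5%, against 7.82% of all. Matches are descriptions of the letters and were given no test. Nrf1 itself had a log2 fold change of −0.10 ± 0.07 in total RNA (adjusted p = 0.259). Yy1 was called lower there (−0.21 ± 0.06, adjusted p = 0.0027), as was the GABP gene Gabpb1 (−0.14 ± 0.06, adjusted p = 0.0404). The GABP gene Gabpa was not called (−0.04 ± 0.06, adjusted p = 0.618).

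Genes that feed, build or regulate the chain were tested beside it, where 14.7% of all tested genes were higher and 16.0% lower. Of 18 tested genes of pyruvate dehydrogenase and the citric acid cycle, 13 were lower (10 with DESeq2) and none higher (edgeR; 0 at an unadjusted p under 0.05 and 0 with DESeq2), with a median log2 fold change of −0.28, and Suclg1 (−0.57 ± 0.10) and Dld (−0.49 ± 0.07) were lowest. Of 17 electron carrier and coenzyme Q genes, 6 were lower (3 with DESeq2) and none higher (edgeR; 0 at an unadjusted p under 0.05 and 0 with DESeq2), led by Coq4 (−0.39 ± 0.13) and Gpd2 (−0.38 ± 0.09). Of 18 genes of mitochondrial gene expression and its regulators, 2 were higher and 9 lower (1 and 7 with DESeq2). Ppargc1a, a coactivator of mitochondrial biogenesis, was higher (0.79 ± 0.23), and the mitochondrial RNA polymerase Polrmt (−0.60 ± 0.16) and the mitochondrial DNA packaging protein Tfam (−0.24 ± 0.06) were lower. Assembly factors of the complexes had 7 higher (15.6%) and 5 lower (11.1%) of 45 (4 and 2 with DESeq2), from Lyrm7 (0.98 ± 0.31), for complex III, to Acad9 (−0.83 ± 0.11), for complex I. Mitochondrial membrane proteins had 1 higher and 7 lower of 16, from Tomm20 (0.14 ± 0.05) of the import pore to Immt (−0.43 ± 0.06), which shapes cristae. The fall in red blood cell genes went with these lower counts, and its part in them was not tested.

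In polysomal RNA, all 39 listed genes passed the test, 16 as higher and 23 as lower in dKO. Atp5e and Cox6a1 were 3.24-fold and 3.23-fold higher, while Ndufa12 and Ndufb4 were 11-fold and 10.1-fold lower, and complexes I, III, IV and V each held genes that moved both ways. Of 5777 tested genes, 47.2% were higher and 52.5% lower. Of 5441 listed genes averaging 100 counts or more, none had a log2 ratio of summed counts (dKO over WT) between −2.04 and −1.71, with 2927 below and 2514 above. The list thus holds few genes near even, and a call within it reflects how the list is made up. Scaling rests on these listed genes, and with RLE scaling the median of all listed genes was −0.11, against −0.35 with TMM. RLE scaling gave 16 higher and 17 lower among the 39 respiratory chain genes, and none of the 39 changed sign under it. Without either WT polysomal library the calls of Atp5o, Cox6c, Ndufb6, Sdha and Uqcr10 were lost. Of the markers listed there, mesenchyme genes (5 of 6 listed, 4 higher and 1 lower) summed to 739.5 to 898.5 CPM in dKO polysomal RNA, against 330 to 339 CPM in WT polysomal RNA, and progenitor genes (7 of 10, 5 higher and 2 lower) to 7132 to 7486 CPM in dKO, against 4923 to 4957 CPM in WT. Neuron genes (5 of 10, 4 lower) summed to 2546 to 2696 CPM in dKO, against 4315 to 4335 CPM in WT, and red blood cell genes (5 of 11, all 5 lower) to 4885 to 4919 CPM in dKO, against 8669 to 8797 CPM in WT. The part of these in the result was not tested. The 39 listed genes are 51.3% of the 76, against 39.3% of all genes tested in total RNA.

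Complex I had 9 higher and 10 lower genes among 19 listed. Ndufa12 had 6 and 5 counts in dKO, against 213 and 253 counts in WT (log2 fold change −3.46 ± 0.39, adjusted p = 4.34e-04). Ndufb4 had 9 and 5 counts in dKO, against 295 and 251 counts in WT (−3.34 ± 0.43, adjusted p = 6.91e-04). Both are accessory subunits, and 26.2% and 37.0% of their windows occur in other genes. Among the others, Ndufa4, Ndufv2 and Ndufa1 were furthest below WT. Ndufa4 had 62.4 and 72.8 CPM in dKO, against 190 and 184 CPM in WT (−1.46 ± 0.11). Ndufv2, a core iron-sulfur subunit, had 126 and 122 CPM in dKO, against 341 and 333 CPM in WT (−1.44 ± 0.07). Ndufa1, a short membrane subunit needed for assembly, had 23.2 and 20.5 CPM in dKO, against 52.7 and 57.2 CPM in WT (−1.34 ± 0.16). The next were Ndufa9 (−0.89 ± 0.16), Ndufs1 (−0.71 ± 0.19), Ndufc2 (−0.68 ± 0.10), Ndufb8 (−0.49 ± 0.09) and Ndufb6 (−0.39 ± 0.10).

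Among the higher complex I genes, Ndufa2, a subunit with a thioredoxin-like fold, had 337 and 338 CPM in dKO polysomal RNA, against 148 and 149 CPM in WT polysomal RNA (1.19 ± 0.07, adjusted p = 9.5e-05). Ndufa13 had 197 and 142 CPM in dKO, against 84.4 and 85.2 CPM in WT (0.99 ± 0.16). The 2 dKO libraries of Ndufa13 were far apart, yet both lay above WT. Ndufa8 (0.98 ± 0.08), Ndufs7 (0.91 ± 0.12), Ndufb7 (0.89 ± 0.08), Ndufv3 (0.74 ± 0.09), Ndufv1 (0.54 ± 0.10), Ndufb9 (0.44 ± 0.07) and Ndufb5 (0.38 ± 0.07) were also higher. Of the core subunits, Ndufs7 and Ndufv1 were higher and Ndufv2 and Ndufs1 lower, but with an offset for GC content Ndufv1 was called lower (−0.36) and Ndufs7 was at −0.23 with no call.

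Sdhd and Sdha were the complex II genes listed, and both were lower. Sdhd had 142 and 113 CPM in dKO, against 214 and 223 CPM in WT (−0.78 ± 0.12, adjusted p = 0.00136). Sdha had 105 and 103 CPM in dKO, against 125 and 139 CPM in WT (−0.34 ± 0.10, adjusted p = 0.0145). In complex III, Uqcrb, a ubiquinone-binding subunit, had 15.9 and 8.47 CPM in dKO, against 48.4 and 47.1 CPM in WT (−2.02 ± 0.28, adjusted p = 8.48e-04), and 43.4% of its windows are shared. Uqcrc2 was lower by −0.98 ± 0.11, and Uqcrq (0.47 ± 0.09) and Uqcr10 (0.37 ± 0.09) were higher.

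Complex IV had 2 higher and 5 lower genes among 7. Cox6a1, the general isoform of a subunit at the dimer face, had 949 and 750 CPM in dKO, against 265 and 261 CPM in WT (1.69 ± 0.11, adjusted p = 1.26e-04). Cox7a2l had 272 and 307 CPM in dKO, against 182 and 176 CPM in WT (0.69 ± 0.09, adjusted p = 6.1e-04). Cox7a2 went the other way, with 77.6 and 63.8 CPM in dKO, against 196 and 210 CPM in WT (−1.53 ± 0.12, adjusted p = 1.52e-04). The close relatives Cox7a2 and Cox7a2l, both higher in total RNA, were therefore on opposite sides in polysomal RNA. Cox5b (−1.56 ± 0.20), Cox7b (−1.55 ± 0.22), Cox5a (−0.63 ± 0.09) and Cox6c (−0.40 ± 0.13) were lower. Cox7b, the gene with the let-7 seed match printed above, had 31.5 and 53.9 CPM in dKO polysomal RNA, against 128 and 127 CPM in WT polysomal RNA. In total RNA it had 75.8 and 76.1 CPM in dKO, against 79.6 and 79.9 CPM in WT (−0.07 ± 0.07, adjusted p = 0.49). Cox7b shared the lowest GC content of the listed genes (41.96%) with Ndufv2, which has no seed match and was lower by −1.44 ± 0.07. A part of let-7 in the polysomal fall of Cox7b was not tested.

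Complex V had 3 higher and 4 lower genes among 7. Atp5e had 1028 and 944 CPM in dKO, against 308 and 301 CPM in WT (1.70 ± 0.07, adjusted p = 8.6e-05). Its neighbour in the rotor, the gamma subunit Atp5c1, had 40.3 and 68.5 CPM in dKO, against 178 and 182 CPM in WT (−1.70 ± 0.22, adjusted p = 6.65e-04). The third rotor subunit, Atp5d, had 517 and 475 CPM in dKO, against 376 and 360 CPM in WT (0.43 ± 0.07, adjusted p = 0.00154). For each of the 3, the groups did not overlap, which held for all 39 listed genes. The list holds few genes near even, so this lack of overlap adds no support. Of the stalk and membrane subunits, Atp5h was higher (0.53 ± 0.08), and Atp5g3 (−0.50 ± 0.07), Atp5f1 (−0.43 ± 0.07) and Atp5o (−0.35 ± 0.08) were lower. Outside the symbol patterns, Cox4i1 (0.66 ± 0.08) and Cyc1 (0.63 ± 0.11) were higher. With the GC offset, Atp5d (−0.69) and Cox4i1 (−0.36) were called lower, and Cyc1 was at −0.20 with no call.

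**Figure D4:**
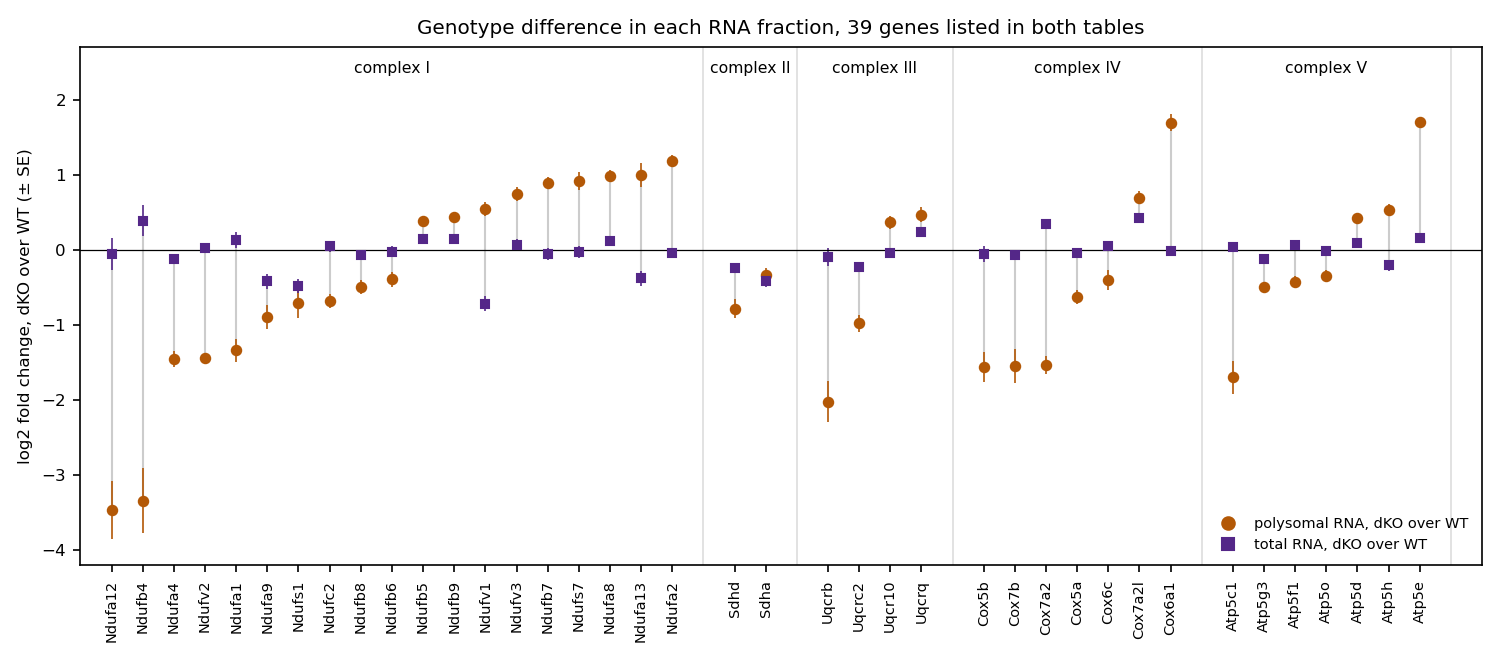
Log2 fold change (dKO over WT, ± 1 standard error) in polysomal RNA (circles) and in total RNA (squares) of the 39 genes listed in both tables, grouped by complex and joined by a grey line per gene. Squares lie between −0.72 and 0.42, whereas circles reach from −3.46 to 1.70.

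Direction in polysomal RNA went with the GC content of the transcript. Of the 13 listed genes with the lowest GC content (41.96% to 48.52%), 1 was higher and 12 were lower. In the middle 13 (48.76% to 52.21%) 4 were higher and 9 lower, and in the top 13 (53.82% to 60.43%) 11 were higher and 2 lower. Spearman's rho between log2 fold change and GC content was 0.66 over the 39 genes and 0.78 over 5743 listed genes with a GC value, all in the same 4 libraries. In total RNA it was 0.07 over the 76 genes and −0.09 over 14477 genes. With a GC term as an offset, 8 genes were higher and 22 lower, and Atp5d, Ndufb9, Ndufv1 and Uqcr10 passed the test as lower in place of higher, as did Cox4i1. Under it Ndufa13, Ndufb7, Ndufs7, Ndufv3 and Cyc1 also came out below 0 and Cox6c above 0, with no call. The shares of all listed genes under the offset are not given here. Whether the shift is particular to the respiratory chain genes was not tested. The calls for Ndufa12, Atp5c1, Cox6a1 and Atp5e kept their direction under that offset. Both dKO libraries carry the trend, so that GC content and genotype cannot be told apart further.

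**Figure D5:**
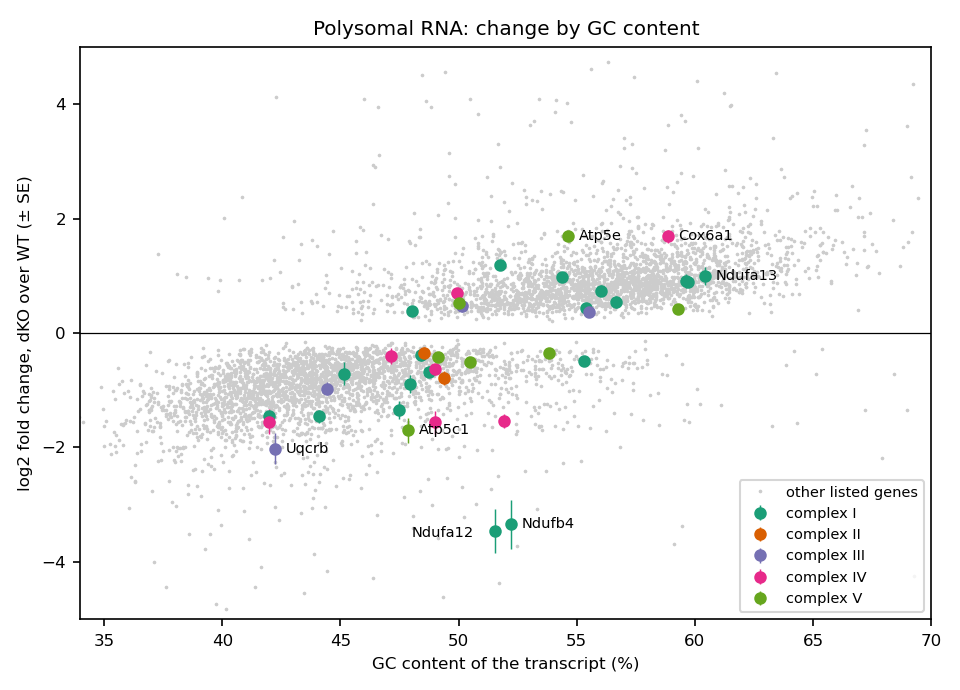
Log2 fold change in polysomal RNA (dKO over WT) against transcript GC content in percent for the 39 respiratory chain genes, coloured by complex with ± 1 standard error, over the other listed genes in light grey. The axes run from −5 to 5 and from 34% to 70%, which leaves out 70 grey genes. The 13 genes of lowest GC content lie below 0 except 1, and the band near 0 holds no gene.

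Set side by side, the fractions gave 15 genes called in both, and the dKO over WT calls were compared with those of all 5738 genes tested in both tables. Of these, 5 were higher in both (Atp5e, Cox7a2l, Ndufb5, Ndufb9 and Uqcrq) and 6 lower in both (Atp5g3, Ndufa9, Ndufs1, Sdha, Sdhd and Uqcrc2), that is 12.8% and 15.4% of 39, where 12.04% and 13.54% of all genes were. With the GC offset, polysomal Ndufb9 was called lower (−0.35). Ndufv1, Ndufa13 and Atp5h were higher in polysomal and lower in total RNA, and Cox7a2 was lower in polysomal and higher in total RNA, combinations that 7.32% and 9.15% of all genes had. With the GC offset, polysomal Ndufv1 (−0.36) and Ndufa13 (−0.22) were below 0, as in total RNA. A further 8 genes were higher and 16 lower in polysomal RNA alone among the calls. These were 20.51% and 41.03% of 39, against 27.54% and 30.12% of all genes. A call in polysomal RNA alone does not show that the fractions differ there. The difference between fractions was therefore tested itself, as the dKO over WT change in polysomal RNA less that in total RNA. By this test 16 of 39 genes were higher and 21 lower, where 43.7% and 45.8% of 5768 genes were. For Ndufv1 the difference was 1.30 ± 0.12 on the log2 scale (adjusted p = 8.1e-06). For Cox7a2 it was −1.85 ± 0.13 (adjusted p = 1.53e-06), for Ndufa13 1.40 ± 0.21 (adjusted p = 1.36e-04) and for Atp5h 0.78 ± 0.11 (adjusted p = 1.08e-04). Sdha (0.12 ± 0.13, adjusted p = 0.397) and Ndufs1 (−0.20 ± 0.22, adjusted p = 0.393) were the 2 genes not called. With the GC offset 7 were higher and 19 lower, and the shares of all genes under that offset are not given here.

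Within a genotype, polysomal RNA was set against total RNA, a ratio of levels that depends on which genes are listed. In dKO, 15 genes were higher in polysomal than in total RNA and 17 lower, against 43.1% and 46.9% of 5768 genes. Cox6a1 had the largest polysomal over total ratio in dKO (log2 1.81 ± 0.10), with Ndufa13 (1.76 ± 0.15) and Ndufv1 (1.39 ± 0.09) next, and Ndufa12 (−3.08 ± 0.41) and Ndufb4 (−3.04 ± 0.37) had the smallest. With DESeq2 that split was 16 higher and 12 lower. In WT the log2 ratios lay between −0.37 and 0.66. There 7 genes (17.95%) were higher and 2 (5.13%) lower, against 3.47% and 8.48% of all genes in the fit. Most of these calls were lost with the replicate block, which ties same-numbered dKO and WT libraries within a fraction. Those libraries showed no sign of pairing, and the block leaves fewer degrees of freedom. Why the calls were lost was not tested. Ndufa4 (0.47 ± 0.08), Cox7a2 (0.40 ± 0.08), Cox6c (0.40 ± 0.10), Ndufc2 (0.39 ± 0.10), Ndufb7 (0.32 ± 0.08), Ndufb6 (0.31 ± 0.08) and Ndufv2 (0.22 ± 0.05) were the higher genes in WT, and Atp5e (−0.37 ± 0.06) and Cox7a2l (−0.30 ± 0.07) the lower ones. The WT counts rest on every library of the fit: without any WT library 0 or 1 were higher, and without either dKO polysomal library 22 were. The median over the 39 genes was 0.17 in WT, against 0.00 for all genes in the fit, and stayed between 0.16 and 0.19 in every alternative.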

How the data were processed

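Per the labels' protocols, Trizol RNA went into stranded libraries (NEBNext Ultra Directional kit). The submitters' processing notes name TopHat, HTSeq and FastQC, and as builds mm9, mm10 and GRCm38, without versions or roles. The sources used here do not give the strand setting, the annotation or the treatment of reads with several matches. Whole-number counts per gene symbol were deposited by the authors in a table of total RNA and a table of polysomal RNA, without normalization, and no value column was left unassigned.

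Genes were tested with edgeR 4.0.16 (TMM, filterByExpr, quasi-likelihood F test) in R 4.3.3, on 14594 genes of total RNA, 5777 of polysomal RNA and 5768 shared genes in a joint fit of 8 libraries, with p-values adjusted over all genes of a fit. Standard errors are the absolute log2 fold change over the square root of F. The scripts were tested on simulated counts. Symbols were matched to GENCODE M21 (GRCm38; 98.4% matched) for coordinates, coding length, GC content and 50-base windows found in other genes, and to RefSeq (GRCm38.p6) for promoters and let-7. Alternatives were RLE scaling, DESeq2 1.42.0, no filter, a minimum mean of 5 CPM, a replicate block, each library left out, a loess offset on GC content (span 0.5), 1 fit of 8 libraries and Ndufa4 moved to complex IV. Added after the data were seen were a scaling with the empty band at 0, a crossed block and the removal of genes with at least 20% shared windows.

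The respiratory chain genes and the other lists were chosen with earlier results of these data known. Named are Lin28a and Lin28b, per complex and comparison up to 4 highest and 4 lowest called genes and the most abundant, every gene listed in the polysomal table, isoforms, subunits outside the symbol patterns, and up to 2 highest and 2 lowest called genes of other lists. Tfam, Nrf1, Yy1, Gabpb1 and Gabpa were named after their values were seen. The values of 1 complex I gene are not reported here, though counts include it. Counts limit precision as the counting error of each gene, and the spread between replicates (biological coefficient of variation 0.0504 in total and 0.0898 in polysomal RNA) adds to it. Replicates of 1 group differed by more than sampling noise (chi-square per degree of freedom 2.88 to 24.7, the highest in dKO polysomal RNA).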

Additional observations from a re-analysis of the deposited data

Results flagged for a closer look

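For 37 of the 39 genes listed in both tables, the dKO over WT change differed between polysomal and total RNA by the test of the difference itself. Values are the polysomal minus the total log2 fold change, from the joint fit. In complex I, the polysomal change was below the total change for Ndufb4 (−3.70), Ndufa12 (−3.37), Ndufa1 (−1.43), Ndufv2 (−1.43), Ndufa4 (−1.29), Ndufc2 (−0.69), Ndufa9 (−0.44), Ndufb8 (−0.40) and Ndufb6 (−0.33), and it was above for Ndufb5 (0.28), Ndufb9 (0.33), Ndufv3 (0.71), Ndufa8 (0.90), Ndufb7 (0.98), Ndufs7 (0.98), Ndufa2 (1.27), Ndufv1 (1.30) and Ndufa13 (1.40). In complex II, the polysomal change was below the total change for Sdhd (−0.50). In complex III, the polysomal change was below the total change for Uqcrb (−1.90) and Uqcrc2 (−0.71), and it was above for Uqcrq (0.27) and Uqcr10 (0.45). In complex IV, the polysomal change was below the total change for Cox7a2 (−1.85), Cox5b (−1.48), Cox7b (−1.42), Cox5a (−0.55) and Cox6c (−0.41), and it was above for Cox7a2l (0.31) and Cox6a1 (1.74). In complex V, the polysomal change was below the total change for Atp5c1 (−1.69), Atp5f1 (−0.46), Atp5g3 (−0.34) and Atp5o (−0.29), and it was above for Atp5d (0.37), Atp5h (0.78) and Atp5e (1.58). Where the difference is negative, both fractions can still have moved the same way, as for Uqcrc2 and Sdhd, which were lower in each. The polysomal list holds few genes near even between genotypes, and of all 5768 genes in the fit 43.7% were above and 45.8% below. Under the GC offset, Ndufb7, Ndufb9, Ndufs7, Ndufv3, Uqcr10 and Atp5d turned from above to below and Uqcrc2 from below to above.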

How the results depend on the processing

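In total RNA, RLE scaling gave the same counts, DESeq2 6 higher and 13 lower, no filter 7 and 14, a minimum of 5 CPM 9 and 16, and the GC offset 12 and 14. Leaving out a library gave 5 to 8 higher and 9 to 16 lower, with the 9 without dKO replicate 2 and 5 higher without dKO replicate 1 or WT replicate 1. Ndufv1, Ndufs1, Ndufa9, Sdha, Sdhc, Sdhd, Uqcrc1, Atp5a1, Atp5b, Cox7a2l, Cox7a2, Cox8a and Ndufc1 kept their call without each library in turn, and calls lost in such runs included those of Atp5e, Atp5g3, Atp5h, Ndufa13, Ndufb5, Ndufb9, Sdhb, Uqcrc2, Uqcrfs1 and Uqcrq. Complex II then had 3 to 4 lower genes and the long genes 7 to 9. The joint fit of 8 libraries tests the 39 listed genes only and gave 2 higher and 4 lower, 1 complex II gene lower of 2 and 4 long genes lower of 6. Ndufa4 in complex IV left complex I at 8 calls.

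In polysomal RNA, RLE scaling gave 16 higher and 17 lower, DESeq2 16 and 16, the GC offset 8 and 22, the empty band at 0 16 and 23, and 14 lower genes remained of 27 under 20% shared windows. Leaving out a library gave 15 to 16 higher and 19 to 23 lower. The GC offset turned these log2 fold changes: Atp5d −0.69, Cox4i1 −0.36, Cox6c 0.023, Cyc1 −0.20, Ndufa13 −0.22, Ndufb7 −0.26, Ndufb9 −0.35, Ndufs7 −0.23, Ndufv1 −0.36, Ndufv3 −0.11 and Uqcr10 −0.43. For the difference between fractions (7 higher under the offset; 14 to 16 higher and 18 to 22 lower without a library) it turned Atp5d −0.73, Cox4i1 −0.48, Lin28b 0.41, Ndufb7 −0.14, Ndufb9 −0.44, Ndufs7 −0.15, Ndufv3 −0.12, Uqcr10 −0.33 and Uqcrc2 0.031. For polysomal over total RNA in dKO (15 higher in each such run, 15 to 20 lower) it turned Atp5d −0.65, Cox4i1 −0.34, Lin28b 0.071, Ndufb9 −0.36, Ndufs7 −0.064, Ndufv3 −0.26, Uqcr10 −0.19 and Uqcrc2 0.011. In WT that ratio gave 0 to 22 higher and 0 to 2 lower without a library. The cause of these changes was not tested.

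Within a fraction, same-numbered dKO and WT libraries showed no sign of pairing: their deviations correlated at −0.04 in total and 0.06 in polysomal RNA. Whether total and polysomal libraries of the same genotype and number are paired was not tested. The replicate block gave 8 higher and 15 lower in total RNA, 16 and 23 in polysomal RNA, 15 and 20 for the difference, 15 and 15 for the dKO ratio and 0 and 1 for the WT ratio, and the crossed block 8 and 16 in total RNA. Depth limits the lowest genes most, such as Cox7a1, Cox7c and Atp5g2.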
